A study of Mus musculus with 17 samples.

Results

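The first postnatal step of the left ventricle of the mouse heart was examined by comparing noncoding RNA at postnatal day 3 (P3) with that on the day of birth, postnatal day 0 (P0). The libraries were chosen by their titles, 3 of left ventricle (LV) at P3 and 3 at P0, so 6 of the 17 libraries of the series. All came from male C57Bl/6 mice, and nothing in the labels names a treatment or a mutation in any group. Per the labels, total RNA of the ventricle was made into strand-specific paired-end libraries, P0 lies before the ductus arteriosus closes, and P3 is a transition. The right ventricle (RV) at both ages and the LV at P7 are used as context, with 3 libraries each. The labels call the samples biological replicates and do not say whether a library held 1 animal or several.

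Long noncoding RNAs are transcripts without a known protein product. Some act at the place where they are made, on neighbouring genes or on chromatin, and others act as structural or host transcripts, for example for small RNAs. In the days after birth the left ventricle takes over the systemic load, heart muscle cells stop dividing, the fuel shifts from glucose towards fatty acids, and fetal isoforms of contractile proteins give way to adult ones. These statements are background and were not measured here.

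The tables list 23940 rows, each a transcript with a NONCODE ID or with an ID of a transcript assembler (TCONS), a position and a value taken to be FPKM, a fragment count scaled to transcript length and to sequencing depth. They pair no ID with a gene name, and 0 IDs matched the RefSeq gene table of GRCm38.p6. The positions run past the last gene of that assembly on 9 chromosomes and are given here unchanged from the tables, taken to be on mm9. The genes at these positions, cell type markers and the pathway lists planned by gene name were therefore not analysed here, and rows are identified by position. No strand is given, so rows that overlap each other or a coding gene may share reads. In a whole ventricle, fewer cells of a type and less RNA per cell cannot be told apart.

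The values imply 15200000 to 20500000 fragments in the 6 libraries, so that 1 fragment on a 1 kb transcript is worth 0.0487 to 0.0656 FPKM. On a shorter transcript 1 fragment is worth more. One mitochondrial row held 48.3% to 62.8% of the summed FPKM of these libraries. Another mitochondrial row split all 17 libraries into a low set of 11, at 7.93 to 25.8 FPKM, and a high set of 6, at 132 to 247 FPKM. Replicate 3 of LV P0 and replicates 1 and 3 of LV P3 belong to the high set, so the set moves in part with age. What the set stands for is not given in the sources used here. At the position of the mitochondrial 12S ribosomal RNA gene mt-Rnr1, whose start and end match deposited rows exactly, the abundant row had a mean of 1037 ± 216 FPKM in the P0 libraries and 1209 ± 265 in those of P3 (SD, n = 3 per age), a difference within the spread of the libraries.

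Between P0 and P3 noncoding transcripts of the left ventricle changed in both directions. Of 11079 rows tested with limma on log2(FPKM + 0.1), 209 were called at a Benjamini-Hochberg adjusted p under 0.05 (1.89%). Of these, 107 were higher at P3 (0.966%) and 102 lower (0.921%). The balance moved with the setting, to 96 higher and 136 lower with a pseudocount of 1, 110 and 146 with the library set as a term, and 96 and 71 with a pseudocount of 0.01. The rising rows went from a median of 0.437 FPKM at P0 to 1.49 at P3, and their median log2 change was 1.54. The falling rows went from a median of 1.60 FPKM to 0.365, and their median log2 change was -1.59. The median over all tested rows was -0.09 on that scale, and 58.2% of them lay below 0.

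In all 209 called rows the 3 P3 libraries lay entirely above or entirely below the 3 P0 libraries. The same held for 17.2% of all tested rows, 6.15% with P3 higher and 11% with P3 lower, so a lack of overlap alone does not set the called rows apart. A change of more than 1 on the log2 scale was reached by 95 rising and 92 falling rows, and more than 2 by 20 and 21. The count of 209 dropped to 114 when LV P0 replicate 1 was left out, to 133 when replicate 3 of that age was, and to 137 when LV P3 replicate 3 was. In the low and the high set alone the median log2 change was 1.49 and 1.51 over the rising rows and -1.69 and -1.52 over the falling rows, beside -0.24 and -0.06 over all tested rows, with 1 library in an arm of each set. The called rows were chosen on these same libraries and do not overlap between the ages. Their direction within each set was thus fixed in advance, and these medians are no separate test.

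**Figure D1:**
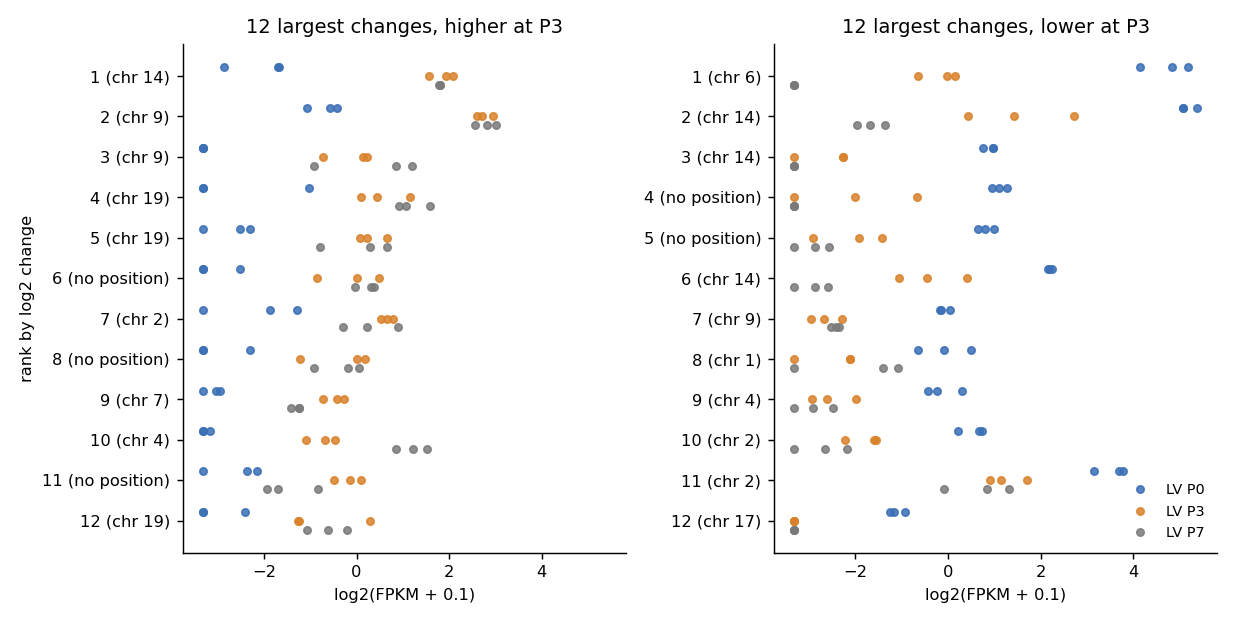
Values per library, as log2(FPKM + 0.1), of the 12 rising (left) and 12 falling (right) rows with the largest log2 change between LV P0 and LV P3, each row labelled by its rank and chromosome. Blue, orange and grey points are the 3 libraries each of LV P0, LV P3 and LV P7. A lack of overlap between blue and orange points was a condition for choosing these rows.

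The largest rise was at chromosome 14, positions 55597685 to 55610438. This row measured 0.0386, 0.208 and 0.215 FPKM in the P0 libraries and 4.16, 2.84 and 3.70 in the P3 libraries. It was close to absent at birth and above 2 FPKM in each P3 library (log2 change 3.93 ± 0.44 SE, limma adjusted p = 4.29e-05). At P7 it stood at 3.33 to 3.39 FPKM.

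The second, NONMMUT070487 on chromosome 9, positions 95464523 to 95468440, measured 0.380, 0.642 and 0.570 FPKM at P0 and 7.59, 5.98 and 6.48 at P3. Every P3 library was above every P0 library by a wide margin (log2 change 3.44 ± 0.23 SE, limma adjusted p = 2.52e-08). A second row at the same position, far less abundant, rose from 0.0746 ± 0.0567 to 0.680 ± 0.408 FPKM (mean and SD of 3 libraries; limma adjusted p = 0.0104). Its call was lost without LV P0 replicate 1 (adjusted p = 0.0635 in limma) and without LV P3 replicate 1 (0.0679), and with a pseudocount of 1 (0.0726).

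Several rising rows were at or near 0 on the day of birth. On chromosome 9, positions 63725391 to 63725653, a row was listed at 0 in all 3 P0 libraries and measured 0.506, 1.0 and 1.06 FPKM at P3 (limma adjusted p = 0.00535). That row spans 263 bases, so its P3 values rest on few fragments. On chromosome 4, positions 119963955 to 119976497, values were 0, 0 and 0.0118 FPKM at P0 and 0.371, 0.620 and 0.523 at P3 (limma adjusted p = 6.24e-05). This row stood at 1.69 to 2.76 FPKM at P7, above all P3 libraries. On chromosome 7, positions 107595247 to 107623350, a row of 28.1 kb in extent measured 0.0213, 0.0287 and 0 FPKM at P0 and 0.735, 0.646 and 0.501 at P3 (log2 change 2.64 ± 0.31 SE, limma adjusted p = 6.24e-05). Its P7 libraries, at 0.277 to 0.325 FPKM, lay between those of P0 and P3. A shorter row inside it, at 107606969 to 107607915, measured 0.0403 ± 0.0360 FPKM at P0 and 0.314 ± 0.101 at P3 (mean and SD of 3 libraries; limma adjusted p = 0.0408). That call was lost without any 1 of the 6 libraries, with limma adjusted p values of 0.0586 to 0.225, and also with a pseudocount of 0.01 (0.142), with no filter (0.115) and with only the 6 libraries fitted (0.0687).

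On chromosome 19, 3 of the 12 largest rises were found. The row at 41155491 to 41156114 measured 0.390, 0 and 0 FPKM at P0 and 2.13, 0.972 and 1.25 at P3 (limma adjusted p = 0.00123). The row at 9683167 to 9683812 measured 0.0754, 0.102 and 0 FPKM at P0 and 1.07, 1.47 and 0.951 at P3 (log2 change 3.03 ± 0.42 SE, limma adjusted p = 0.000298). Its neighbour at 9684828 to 9699306 was less even, with 0.321 and 0.317 FPKM in 2 P3 libraries and 1.12 in replicate 3. The neighbour's limma adjusted p was 0.0154, and without LV P3 replicate 3 it was 0.115. Without LV P0 replicate 1 or 3 it was 0.0867 and 0.0780 in limma, and with a pseudocount of 1 it was 0.185.

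On chromosome 2, positions 143884872 to 143894550, a row measured 0.173, 0.310 and 0 FPKM at P0 and 1.64, 1.34 and 1.49 at P3 (limma adjusted p = 0.001). The remaining 3 of the 12 largest rises carry no position. Their P0 libraries held 0 to 0.126 FPKM and their P3 libraries 0.327 to 1.31. One of these, with log2 change 2.64 ± 0.57 SE and limma adjusted p = 0.0164, lost its call without LV P0 replicate 1 or 3 and without LV P3 replicate 1 or 3, with limma adjusted p values of 0.0766 to 0.0971, and without a filter, at 0.0537.

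The steepest fall was that of TCONS_00049214 on chromosome 6, positions 87387308 to 87387671. It measured 36.1, 17.6 and 28.5 FPKM at P0 and 0.878, 1.01 and 0.537 at P3. An abundant transcript at birth was thus near 1 FPKM or below in every library 3 days later (log2 change -4.89 ± 0.35 SE, limma adjusted p = 6.51e-08). The RV libraries measured 2.26, 3.59 and 3.71 FPKM at P3, above all LV libraries of that age, and 17.2 to 36.4 FPKM at P0. The test of the difference between the ventricles gave an unadjusted p of 0.00114 and an adjusted p of 0.797 in limma.

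On chromosome 14, 4 called rows lay within 23.1 kb, and it was the one stretch of called rows within 50 kb of each other that held both directions. The rising row described above spans a falling one at 55600011 to 55600850, which measured 4.61, 4.33 and 4.43 FPKM at P0 and 1.24, 0.377 and 0.632 at P3 (log2 change -2.55 ± 0.37 SE, limma adjusted p = 0.000562). At the lower end of the stretch, the row at 55590746 to 55591524 measured 33.4, 33.4 and 41.6 FPKM at P0 and 6.50, 1.25 and 2.58 at P3 (log2 change -3.64 ± 0.51 SE, limma adjusted p = 0.000365). Replicate 1 was the highest of the P3 libraries of this row. At the upper end, the row at 55613573 to 55613820 measured 1.87, 1.59 and 1.86 FPKM at P0 and 0.107, 0.106 and 0 at P3 (limma adjusted p = 0.000141). In LV P3 replicate 1 the rows at 55590746 and 55600011 stood higher than in the other 2 P3 libraries, and the rising row was also highest there.

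**Figure D2:**
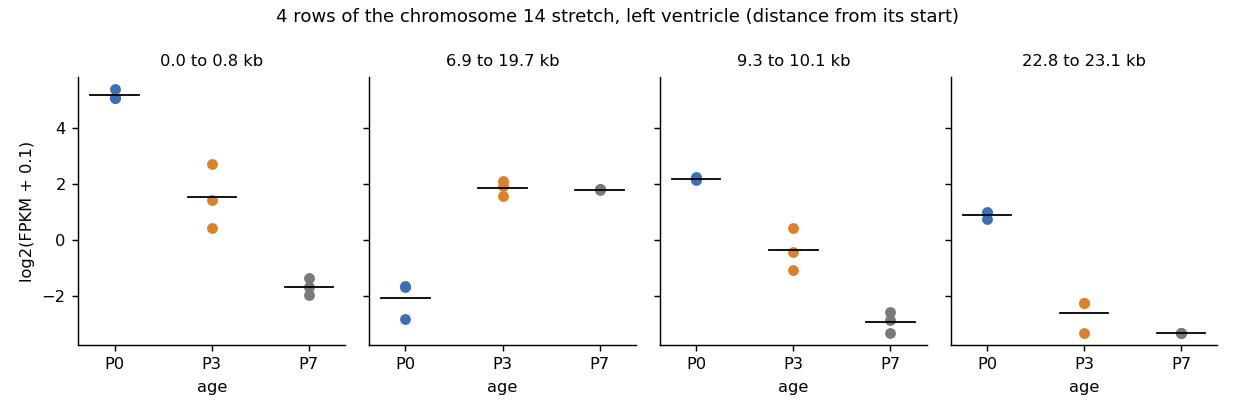
The 4 called rows of the chromosome 14 stretch in the left ventricle, each panel headed by its distance in kb from the start of the stretch; points are libraries at P0, P3 and P7 as log2(FPKM + 0.1), and black lines are means of 3. The second row rose to 4.16, 2.84 and 3.70 FPKM at P3, while the others fell at P3 and were lower still, at 0 to 0.289 FPKM, at P7.

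The other rows among the 12 largest falls had been less abundant at birth than those on chromosome 6 and at 55590746 on chromosome 14. On chromosome 2, positions 22868343 to 22869673, values were 13.6, 8.75 and 12.8 FPKM at P0 and 2.12, 1.76 and 3.15 at P3 (log2 change -2.29 ± 0.31 SE, limma adjusted p = 0.000262). On chromosome 9, positions 79566761 to 79568645, they were 0.930, 0.783 and 0.806 FPKM at P0 and 0.0283, 0.0560 and 0.104 at P3 (log2 change -2.55 ± 0.29 SE, limma adjusted p = 5.33e-05). A neighbouring row at 79560341 to 79566638 measured 0.263 ± 0.0389 FPKM at P0 and 0.0405 ± 0.0563 at P3 (mean and SD of 3 libraries; limma adjusted p = 0.0116). The neighbour lost its call without LV P0 replicate 3, LV P3 replicate 1 or LV P3 replicate 2, with limma adjusted p values of 0.0565 to 0.0715, with only the 6 libraries in the fit, at 0.0931, and with a pseudocount of 0.01, at 0.0571.

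On chromosome 4, positions 129118295 to 129124212, a row measured 1.13, 0.637 and 0.744 FPKM at P0 and 0.152, 0.0301 and 0.0638 at P3 (limma adjusted p = 0.001). On chromosome 2, positions 52222369 to 52222832, values were 1.57, 1.48 and 1.05 FPKM at P0 and 0.230, 0.114 and 0.241 at P3 (limma adjusted p = 0.00376, and 0.1 with a pseudocount of 0.01). That the P0 and P3 libraries of both rows do not overlap was a condition for choosing them.

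The call also depended on a setting or on single libraries for 3 other rows among the 12 largest falls. The row on chromosome 17, positions 13812667 to 13820523, measured 0.343, 0.424 and 0.319 FPKM at P0 and was listed at 0 in all 3 P3 libraries (limma adjusted p = 0.000165). When values were summed over the rows at that position, the log2 change was -0.32 (limma adjusted p = 0.814). The row on chromosome 1, positions 162964553 to 162968670, measured 0.846, 1.30 and 0.539 FPKM at P0 and 0.132, 0.131 and 0 at P3 (limma adjusted p = 0.0293). Summed with the other rows at its position its log2 change was -0.53 (limma adjusted p = 0.544), and it lost its call without LV P0 replicate 1 or 2 or any LV P3 replicate, with limma adjusted p values of 0.0522 to 0.162. With a pseudocount of 0.01 its adjusted p was 0.238 and with no filter 0.09, again in limma. A row without a position measured 2.06, 2.31 and 1.83 FPKM at P0 and 0.525, 0.149 and 0 at P3 (limma adjusted p = 0.0208). It lost its call without any 1 of the P0 libraries or LV P3 replicate 2 or 3, with limma adjusted p values of 0.0617 to 0.136, with a pseudocount of 0.01, at 0.189, and with no filter, at 0.0683. The last of the 12, also without a position, measured 1.88, 1.65 and 1.46 FPKM at P0 and 0.163, 0.0323 and 0.273 at P3 (limma adjusted p = 0.000298).

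Some of the called rows were listed at 0 in every LV library of P0 or of P3. A total of 6 of the 107 rising rows were listed at 0 in all 3 P0 libraries, and 6 of the 102 falling rows were listed at 0 in all 3 P3 libraries. The share of such rows among all tested rows was not counted, and a listed 0 need not mean that a transcript is absent. Besides the row at chromosome 9, the rows at 0 at P0 reached 0.134 to 0.553 FPKM per library at P3. One of them, on chromosome 13 at 113554940 to 113564831, measured 0.413, 0.319 and 0.274 FPKM at P3 (limma adjusted p = 0.000716). Of the rows at 0 at P3, the one on chromosome X at 71417063 to 71417263 was uneven at birth, with 0.121, 0.163 and 1.21 FPKM at P0 (limma adjusted p = 0.0493). The rows on chromosomes 13 and X were named after their values were seen.

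The next rows were chosen as the most abundant called rows outside the 12 largest changes in each direction, which keeps their changes smaller. TCONS_00024059 on chromosome 16, positions 90341906 to 90350117, measured 76.7, 74.5 and 88.4 FPKM at P0 and 240, 216 and 212 at P3. The libraries of each age lay close together (log2 change 1.48 ± 0.09 SE, limma adjusted p = 1.23e-08). A shorter row inside it, at 90348970 to 90349887, measured 29.1, 27.4 and 20.7 FPKM at P0 and 79.4, 78.1 and 74.0 at P3 (log2 change 1.59 ± 0.14 SE, limma adjusted p = 1.42e-06). Because they overlap, these rows may count some of the same fragments.

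A row without a position measured 54.0, 42.1 and 43.0 FPKM at P0 and 140, 181 and 155 at P3 (log2 change 1.77 ± 0.16 SE, limma adjusted p = 1.71e-06). The row on chromosome 1, positions 40912037 to 40913731, measured 59.1, 70.4 and 66.4 FPKM at P0, 112, 98.4 and 102 at P3, and 72.3 to 83.7 at P7. Its P3 libraries were above those of both other ages (log2 change from birth 0.67 ± 0.12 SE, limma adjusted p = 0.00264, and 0.203 without the variance trend). Another row of chromosome 16, at 20128179 to 20129289, measured 23.6, 24.3 and 26.0 FPKM at P0 and 45.6, 39.2 and 32.0 at P3 (limma adjusted p = 0.011). Its call was lost without LV P0 replicate 1 (limma adjusted p = 0.0595), without LV P3 replicate 1 (0.0658), with only the 6 libraries (0.0919) and without the variance trend (0.236).

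Among abundant rows that fell, NONMMUT064276 on chromosome 7, positions 149761434 to 149764051, measured 95.7, 55.7 and 64.0 FPKM at P0 and 21.8, 24.3 and 24.0 at P3. The P0 libraries were spread, with replicate 1 highest, and the P3 libraries nearly equal (log2 change -1.58 ± 0.21 SE, limma adjusted p = 0.000203). At P7 it stood at 10.4 to 10.9 FPKM. A row without a position measured 57.6, 45.6 and 39.9 FPKM at P0 and 16.5, 14.9 and 15.2 at P3 (log2 change -1.60 ± 0.23 SE, limma adjusted p = 0.000569). Another without a position measured 28.7, 31.1 and 36.7 FPKM at P0 and 9.13, 9.17 and 11.8 at P3 (log2 change -1.68 ± 0.19 SE, limma adjusted p = 3.94e-05).

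The other abundant falling rows were on chromosome 7 and held less firmly. The row at 6656616 to 6658546 measured 48.0, 39.4 and 51.2 FPKM at P0 and 32.1, 22.3 and 31.3 at P3 (log2 change -0.70 ± 0.15 SE, limma adjusted p = 0.0126). It lost its call without LV P0 replicate 1 or 3 or LV P3 replicate 2, with limma adjusted p values of 0.0632 to 0.0732, with only the 6 libraries, at 0.0919, and without the variance trend, at 0.209. A row 31.0 kb away, at 6623980 to 6625599, measured 1.46 ± 0.0746 FPKM at P0 and 0.535 ± 0.0606 at P3 (mean and SD of 3 libraries; limma adjusted p = 0.0136). Without LV P0 replicate 1 or 3 or LV P3 replicate 2 that p was 0.0505 to 0.0748 in limma. The row at 51737398 to 51741403 measured 28.5, 22.1 and 33.9 FPKM at P0 and 17.7, 9.76 and 12.4 at P3, with a limma adjusted p of 0.0499. It lost its call without LV P0 replicate 1 or 3 or LV P3 replicate 2 or 3, with limma adjusted p values of 0.155 to 0.237. Other settings that ended it were a pseudocount of 0.01 (0.0756), no filter (0.151), no variance trend (0.163) and the replicate number as a block (0.0636).

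**Figure D3:**
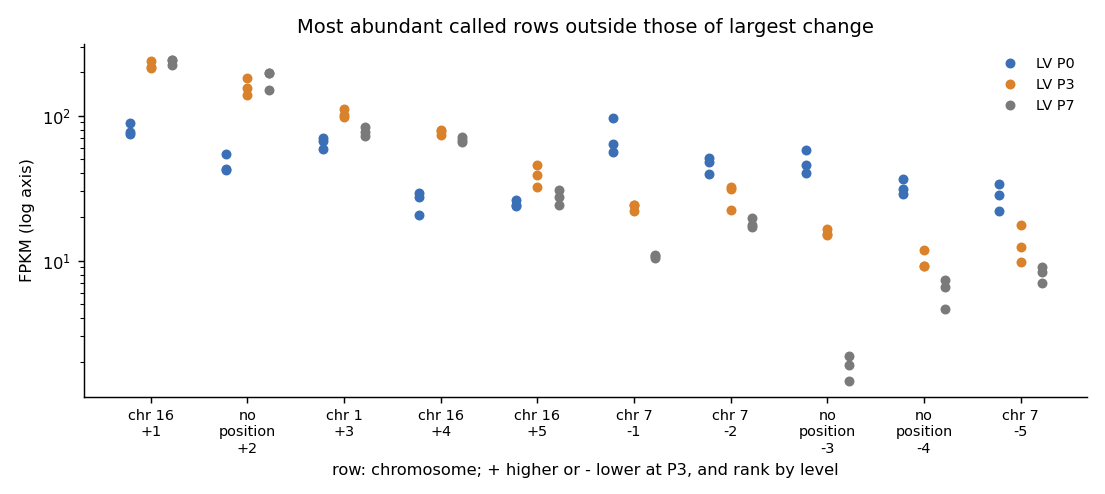
FPKM per library, on a log axis, of the 5 rising (+) and 5 falling (-) called rows with the highest mean over the 6 libraries that are not among the 24 largest changes; blue, orange and grey points are LV P0, LV P3 and LV P7, 3 libraries each. TCONS_00024059, at the left, went from 74.5 to 88.4 FPKM at P0 to 212 to 240 at P3.

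Some called rows were neighbours. In all, 38 of the 209 called rows stood in 18 stretches in which each called row lay within 50 kb of the next. Of these stretches, 11 held rising rows, 6 held falling rows, and the chromosome 14 stretch held both. In 7 stretches the rows had one and the same position, so their values are not independent measurements. How often uncalled rows lie as close was not tested, and 5055 of the 23940 rows of the tables share a position. Among pairs at distinct positions, 2 rows on chromosome 13 at 6588292 to 6591319 and 6591443 to 6594406 fell together, from 10.2 ± 1.71 to 2.75 ± 1.44 FPKM and from 6.91 ± 0.883 to 2.13 ± 1.07 FPKM (mean and SD of 3 libraries; limma adjusted p = 0.0269 and 0.0419). On chromosome 19, rows at 56813481 to 56821375 and 56834344 to 56835384 rose together, from 0.923 ± 0.241 to 3.21 ± 0.576 FPKM and from 0.0699 ± 0.0803 to 0.481 ± 0.248 FPKM (mean and SD of 3 libraries; limma adjusted p = 0.00135 and 0.0154). These pairs were chosen after their values were seen.

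By kind of ID, 40 of 1672 tested TCONS rows were higher at P3 (2.39%) and 31 lower (1.85%), against 67 (0.712%) and 71 (0.755%) of 9407 NONCODE rows. TCONS rows were also more abundant, with a median of 0.451 FPKM at P0 against 0.170 for NONCODE rows. Calls were more frequent at higher levels. Of 161 rows averaging 10 FPKM or more over the 17 libraries, 15 were higher (9.32%) and 13 lower (8.07%), and of 3650 rows under 0.1 FPKM, 1 was higher and 7 were lower. The part of level in the difference between the kinds of ID was not tested. By chromosome, the calls of chromosome 19 were mostly rises (8 higher, 2.27%, and 1 lower, 0.284%, of 352 tested). So were those of chromosome 15 (7 higher, 1.69%, and 1 lower, 0.241%, of 415). Those of chromosome X were mostly falls (1 higher, 0.34%, and 6 lower, 2.04%, of 294). Over all tested rows the shares were 0.966% and 0.921%. These chromosomes were picked after their counts were seen. These counts are descriptions and include rows that share a position or are close neighbours, as on chromosomes 19 and 15.

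The same step in the right ventricle gave the rows called in the LV changes of mostly equal sign. Of the 107 rising rows, 107 had a positive log2 change in the RV and 73 were called there, which is 68.2% of the LV list and 45.9% of the 159 rows called higher in the RV (1.44% of rows tested). Of the 102 falling rows, 95 had a negative change in the RV and 51 were called, 50% of the LV list and 44.7% of the 114 rows called lower in the RV (1.03%). The median log2 change in the RV was 1.39 for the rising and -1.05 for the falling rows, beside -0.04 over all tested rows. In all the RV test called 273 rows (2.46%), and none of the 209 was called in opposite directions. The labels do not say whether the ventricles came from the same animals, and both lists come from one fit with a shared variance per row. The high library set also holds the same replicate numbers at each age in both ventricles, so it moves with age alike in both. Its part in the equal signs was not tested.

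**Figure D4:**
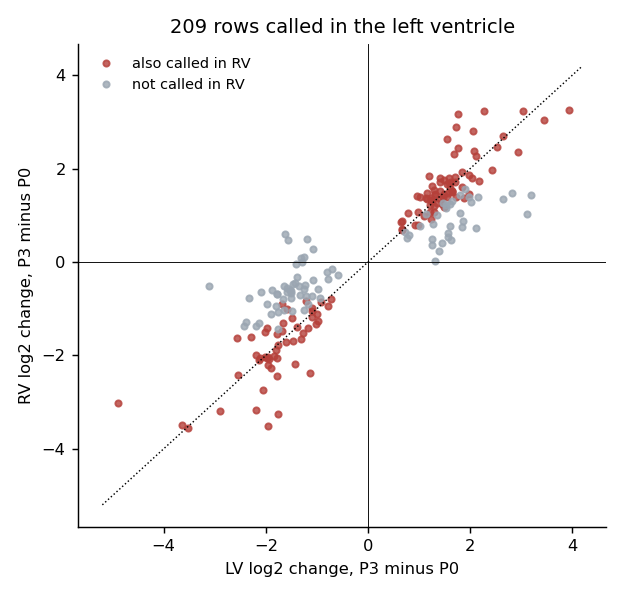
Log2 change from P0 to P3 in the left ventricle (x axis) and in the right ventricle (y axis) of the 209 rows called in the left ventricle, in red where also called in the right; the dotted line marks equal change. All 107 rising rows lie above 0 in the right ventricle, and 95 of the 102 falling rows lie below 0.

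No row was called for a different change in the 2 ventricles. The limma test of the difference called 0 of 11079 rows (0%), its smallest adjusted p was 0.332, and 506 rows had an unadjusted p below 0.05. If no row differed, 554 would be expected below 0.05 unadjusted. It treated the libraries of the ventricles as unpaired. Some rows called in the LV had a smaller change in the RV and were not called there. Such rows were chosen on their LV values, which favours a larger change in the LV. The row on chromosome 19 at 41155491 measured 0.0898, 0.288 and 0.0883 FPKM at P0 and 0.452, 0.233 and 0.529 at P3 in the RV. Its log2 change there was 1.02 (limma adjusted p = 0.362), against 3.12 in the LV, and the difference had an unadjusted p of 0.00769 and an adjusted p of 1 in limma. On chromosome 7, the row at 6656616 had a log2 change of -0.15 in the RV (limma adjusted p = 0.709), against -0.70 in the LV. In the other direction, the abundant rising row without a position reached 187, 265 and 229 FPKM in the RV at P3, above the 140 to 181 of the LV (difference in log2 change, LV minus RV, -0.67, unadjusted p = 0.00744 and adjusted p = 1 in limma).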

How the data were processed

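The authors deposited 1 table per library, all with the same 23940 rows; per the submitters' processing notes reads were aligned with STAR 2.4.0j and the build was mm10. No source used here gives the annotation, counting tool or filters. The deposited values were read as FPKM, an inference from steps in the low values that are constant within a library. In the 6 libraries 57.3% to 59.4% of low values fell on these steps, with the span of a row taken as its transcript length. Rows at 0.1 FPKM or more in at least 2 of the 17 libraries entered the test, on log2(FPKM + 0.1), a scale that understates changes of low rows. The model, from limma 3.58.1 (R 4.3.3), had 1 coefficient for each group of the 17 libraries, with trended, robust variance moderation, and was tested on simulated data. P-values are two-sided and Benjamini-Hochberg adjusted over 11079 rows. Named rows are, per direction, the 12 largest called changes with a mean above the median of tested rows and no overlap between P0 and P3, the 5 most abundant other called rows, and called rows within 50 kb of these. The comparison, lists and rules were chosen with earlier results of these data known. Planned gene lists and sequences were not analysed here, for want of an annotation of the files' build. Alternatives changed the pseudocount, filter, scaling, libraries fitted, variance trend, replicate block, rows per position and library set; 1 on the pairing of ventricles was added after seeing the data.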

Additional observations from a re-analysis of the deposited data

How the results depend on the processing

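Beside the 209 calls, the fit without a filter on low values made 131 (67 higher, 64 lower; 122 among the 209), the low library set alone 20 (8 higher, 12 lower; 16 among the 209) and the high set alone 17 (13 higher, 4 lower; all 17 among the 209). Each set leaves 1 library in an arm, whose spread is taken from the remaining groups. Leaving out 1 library gave 114 to 180 calls, 59 to 92 higher and 55 to 88 lower. The number higher was 64 without LV P3 replicate 1 and the number lower 64 without LV P3 replicate 2. The other settings stayed within 1.5 times of the count. With the replicate block 204 rows were called, 107 higher and 97 lower, and the block ended the call of 2 of the 38 named rows, at chromosome 7, 51737398 (limma adjusted p = 0.0636) and 107606969 (0.0566). Deviations from the group means in same-numbered libraries of P0 and P3 had r of -0.05, 0.04 and 0.01. Unlike-numbered libraries had r of -0.08 to 0.07. These values gave no sign of a pairing by number, but with so few libraries they cannot exclude one. Median scaling, which moves the median of all rows to -0.01, gave 119 higher and 88 lower, and 106 and 85 of the calls were shared. Of the 38 named rows, whose direction the rule for naming them largely fixes, 24 kept their call in every other alternative that tested them, the single sets aside. The difference between ventricles was called in 0 rows under 7 alternatives. It is not reported here with libraries left out, by library set or with the set as a term, or with values summed per position. Between the ventricles, same-numbered libraries of 1 age deviated together with r of 0.05 to 0.17, and each of the 6 pairs correlated best with its own number, but 3 of the 6 stayed under 0.1. In both ventricles the high library set is replicate 3 at P0 and replicates 1 and 3 at P3. Within the low set at P0, same-numbered pairs had r of 0.098 and 0.072, and unlike-numbered pairs -0.015 and -0.041. Within the high set at P3, same-numbered pairs had r of 0.115 and 0.045, and unlike-numbered pairs 0.030 and 0.018. Whether number or library set underlies these correlations was not tested. With age and number as a replicate block, added after seeing the data, the difference between ventricles was again called in 0 rows, with 678 at an unadjusted p below 0.05 and a smallest adjusted p of 0.0607 in limma, that of the abundant rising row without a position. If no row differed, 554 would be expected below 0.05 unadjusted. The cause of these shifts was not tested. At 15200000 to 20500000 fragments, rows under 0.1 FPKM rest on few fragments. Short rows do so at higher values too, as 1 fragment is worth more FPKM on a shorter transcript.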

Other observations

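In 32 of the 11079 tested rows the low and high library sets did not overlap. They include the mitochondrial row whose level defined the sets, which separates them by construction. As both ages hold both sets, any row that separates the sets must overlap between P0 and P3. The row on chromosome 1 at 24620805 to 24621171 measured 4.40 to 17.4 FPKM in the low set and 38.0 to 96.3 in the high set. A row on chromosome 5 at 92054214 to 92055769 measured 13.4 to 17.4 FPKM in the low set and 19.8 to 23.0 in the high set.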
